A study of Mus musculus with 6 samples.

Results

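The miRNAs described here are miR-146a, miR-146b, miR-155, miR-132 and miR-212, a group known for its induction by inflammatory and stimulus-dependent signalling. They were taken from the table of read counts by name, with both arms of each hairpin kept, which gave 10 of 1480 entries. No measured value entered this choice. Small RNA was sequenced from skin of mice irradiated with ultraviolet A (UVA) light, given on alternate days over 4 months to a total dose of 89.88 J/cm2, and from non-irradiated mouse skin, in 3 libraries per group, numbered as replicates 1 to 3. The sources used here do not give the strain, sex or age of the mice, or whether replicates are separate animals, so a p-value reflects only how these libraries spread, which may be technical.

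miR-146a is induced by NF-κB downstream of Toll-like and interleukin-1 receptors. It represses the mRNAs of the signalling proteins TRAF6 and IRAK1, which makes it a brake on the signal that induces it. miR-155 is made from a non-coding host transcript in activated leukocytes, and it represses the mRNAs of SHIP1 (gene Inpp5d) and SOCS1, inhibitors of immune signalling. miR-132 and miR-212 come from neighbouring hairpins that are transcribed together in response to the transcription factor CREB. In skin, miR-146a is known as a brake on inflammatory signalling in keratinocytes, and miR-132 is described in wound repair.

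The mature sequences are printed because the comparisons turn on which of them share a seed and on how close the miR-146 pair is. All 10 entries matched RefSeq by name, and all 10 had the deposited sequence. The sequences are RefSeq's (GRCm38.p6), 5′ to 3′, with the seed (bases 2 to 8) in capitals.
miR-146a-5p: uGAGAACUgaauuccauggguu
miR-146b-5p: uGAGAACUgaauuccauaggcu
miR-155-5p: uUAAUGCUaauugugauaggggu
miR-132-3p: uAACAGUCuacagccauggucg
miR-212-3p: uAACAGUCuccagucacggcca
miR-132-5p: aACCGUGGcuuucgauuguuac
miR-212-5p: aCCUUGGCucuagacugcuuacu

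miR-146a-5p and miR-146b-5p have the same seed and the same base at 20 of 22 positions, and they differ by G18A and U21C (miR-146a-5p base first, positions counted from 1 at the 5′ end). The sources used here do not say how reads were split between sequences this close. miR-132-3p and miR-212-3p also share a seed and have the same base at 17 of 22 positions, with A10C, C14U, U17C, U20C and G22A (miR-132-3p base first). The 5p arms of that pair have different seeds. Apart from the miR-146 pair, none of the 10 comes within 2 edits of any other entry.

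The hairpins lie in different settings in GRCm38. Mir146, which gives miR-146a, lies at chr11:43374397-43374461 on the minus strand and overlaps no other gene in the GENCODE M21 annotation. Mir146b lies at chr19:46342762-46342870 on the plus strand, in an intron of the protein-coding gene Mfsd13a on the same strand. Mir155 lies at chr16:84714140-84714204 on the plus strand, in an exon of its host RNA Mir155hg. Mir212 (chr11:75173388-75173478) and Mir132 (chr11:75173682-75173747) lie on the plus strand in an intron of the non-coding 1700016P03Rik, with 203 bases between them. The Mir132 and Mir212 hairpins are printed because both arms of each were counted, with the mature arms in capitals.
Mir132: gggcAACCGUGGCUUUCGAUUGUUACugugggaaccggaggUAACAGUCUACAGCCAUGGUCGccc
Mir212: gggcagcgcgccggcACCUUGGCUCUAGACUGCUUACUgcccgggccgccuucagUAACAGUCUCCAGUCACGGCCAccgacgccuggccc

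The seed pairs with a complementary stretch of the target mRNA, and the first such stretch after the stop codon of known target genes is shown as an example of what these seeds recognise. The sites are 22 bases of the GENCODE M21 transcript (GRCm38), 5′ to 3′, with the 7 bases complementary to the seed in capitals. Traf6 (chr2:101697948-101697969, plus strand) and Irak1 (chrX:74015390-74015411, minus strand) are known targets of miR-146, and Inpp5d (chr1:87719827-87719848, plus strand) and Socs1 (chr16:10784203-10784224, minus strand) of miR-155.
Traf6: ctctggtgttgAGTTCTCattt
Irak1: tcagaggtcaaAGTTCTCatgc
Inpp5d: tgtttttaaaaAGCATTAaaga
Socs1: cgctgtgccgcAGCATTAagtg
AGTTCTC occurred in the longest annotated 3′ untranslated region of 11.2% of 20998 genes, AGCATTA in 8.3% and GACTGTT, the match to the seed of miR-132-3p and miR-212-3p, in 10.7%, searched on the mRNA strand only. A match of 7 letters is a description, and mRNAs were not analysed here.

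Between 8194504 and 12817972 reads per UVA library were assigned to miRNAs, against 7653819 to 17192811 per non-irradiated library. The authors' total reads per library were 20472250 to 21896213 for UVA and 26904012 to 30459804 for non-irradiated skin, without overlap, and a batch that goes with them and the irradiation cannot be told apart. Entries with 1 to 9 reads numbered 579 to 591 in the UVA libraries but only 21 and 34 in non-irradiated replicates 1 and 2, against 299 in non-irradiated replicate 3, which bears on each miRNA with few reads below. The keratinocyte miRNA miR-203-3p was abundant in every library, at 22936 to 68244 counts per 1000000 miRNA reads (CPM) in UVA skin and 36427 to 45881 CPM in non-irradiated skin. Another keratinocyte miRNA, miR-205-5p, stood at 3476 to 7508 CPM in UVA skin and 514 to 891 CPM in non-irradiated skin. Striated muscle miRNAs took 5.08 to 7.16% of miRNA reads in UVA libraries and 28.5 to 39.7% in non-irradiated libraries, and their part in the results below was not tested. CPM values here are scaled by the trimmed mean of M-values (TMM), which limits the weight of such abundant miRNAs. In whole skin, fewer cells of a type and less RNA per cell cannot be told apart.

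The question was whether these miRNAs differ in skin after repeated UVA exposure. miR-146a-5p rose about 2.38-fold in UVA skin, the sister sequence miR-146b-5p had a log2 fold change of only 0.10, and miR-155-5p, miR-132-5p and miR-212-3p were 1.70 to 4.21 log2 units higher in UVA skin without passing the test. Of the 10 entries, 9 had enough reads to be tested, and 1 was called, against 21.8% of the 499 miRNAs tested (13.6% called higher and 8.22% lower; edgeR quasi-likelihood test with Benjamini-Hochberg adjustment, with 0.05 as the limit). The 1 in 9, called higher, is 11.1%, close to the 13.6% of all tested miRNAs called higher. All 9 tested members had positive log2 fold changes, as had 55.5% of all tested miRNAs, and their median was 1.25 against 0.27. miR-212-3p passed the filter on low counts through its UVA libraries alone, so its positive sign was fixed in advance. Counts that include it, here and below, are no evidence of a rise in it. They describe the tested members and not all 10. Groups did not overlap in 3 of 9 members, all higher in UVA, against 28.3% of tested miRNAs that were higher in UVA without overlap.

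**Figure D1:**
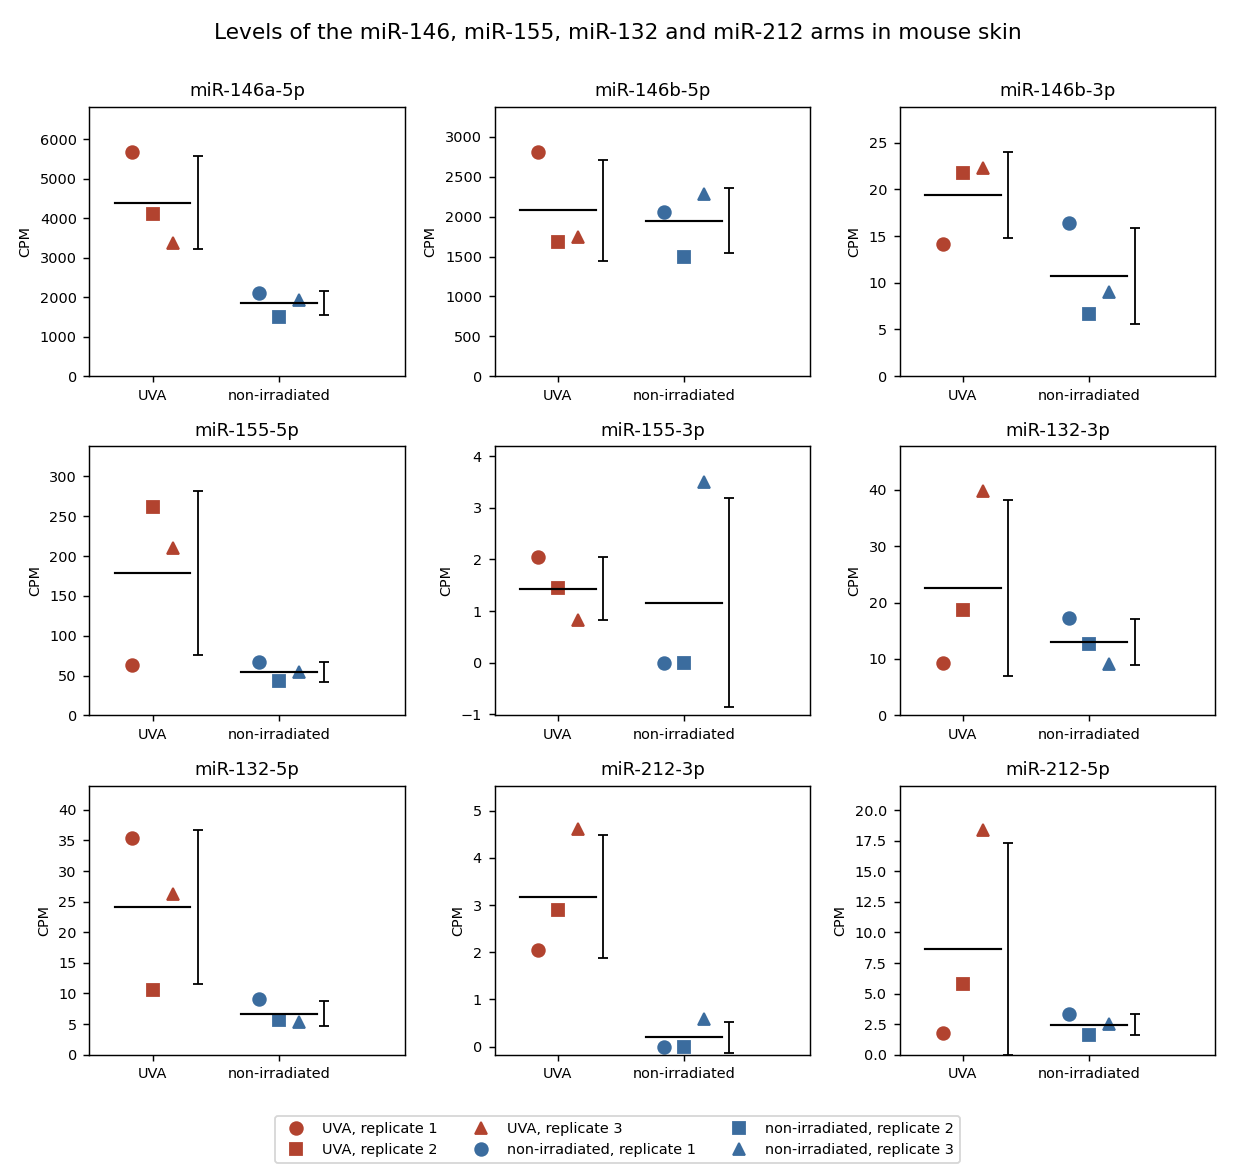
Level of each tested arm in each library, in TMM-scaled CPM on linear axes, with UVA libraries left of non-irradiated libraries. Marker shapes give the replicate number, horizontal lines the group mean and bars ± 1 SD (n = 3 per group). The groups do not overlap for miR-146a-5p, miR-132-5p and miR-212-3p, and for miR-155-5p 1 UVA library, at 63.7 CPM, sits among the non-irradiated libraries.

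mmu-miR-146a-5p was the most abundant member. It stood at 5675, 4110 and 3370 CPM in UVA replicates 1 to 3, against 2092, 1499 and 1938 CPM in non-irradiated replicates 1 to 3. Each UVA library lay above each non-irradiated library, with UVA replicate 1 the highest of all. It averaged 4385 ± 1177 CPM after UVA and 1843 ± 308 CPM without irradiation (SD, n = 3 each; log2 fold change 1.25, SE 0.40, edgeR adjusted p = 0.049). The call was close to the threshold: it was lost when any single library other than UVA replicate 3 was left out (adjusted p from 0.119 to 0.254) and with upper-quartile scaling (0.0734), while the log2 fold change stayed between 0.89 and 2.06 in 16 alternatives. The other arm, miR-146a-3p, had 3, 1 and 0 reads in UVA replicates 1 to 3 and 0 reads in each non-irradiated library, and was not tested.

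mmu-miR-146b-5p, with the same seed, was not called. It stood at 2813, 1684 and 1750 CPM in UVA replicates 1 to 3, against 2061, 1500 and 2287 CPM in non-irradiated replicates 1 to 3. The groups overlapped, with non-irradiated replicates 1 and 3 above UVA replicates 2 and 3. The log2 fold change was 0.10 (SE 0.41, edgeR adjusted p = 0.897), and it turned negative on leaving out UVA replicate 1 (-0.26), non-irradiated replicate 1 (-0.01) or non-irradiated replicate 2 (-0.29). The minor arm miR-146b-3p stood at 14.1, 21.8 and 22.3 CPM in UVA replicates 1 to 3, against 16.4, 6.64 and 9.03 CPM in non-irradiated replicates 1 to 3, and was not called (log2 fold change 0.86, SE 0.59, edgeR adjusted p = 0.288).

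The balance between these sisters can be read within each library, where the scaling between libraries plays no part. There were 2.02, 2.44 and 1.93 reads of miR-146a-5p per read of miR-146b-5p in UVA replicates 1 to 3, against 1.02, 0.999 and 0.847 in non-irradiated replicates 1 to 3. The pair was thus near parity in all 3 non-irradiated libraries and near 2 to 1 or above in all 3 UVA libraries. The log2 ratio was higher in UVA skin by 1.15 (SE 0.13), in 3 of 3 libraries without overlap (2-sided exact permutation test, p = 0.1, which 3 against 3 libraries cannot undercut; 0.32 adjusted over 16 ratios). Leaving out single libraries kept this difference between 1.05 and 1.22. Added together, the sisters averaged 6489 ± 1841 CPM after UVA and 3787 ± 705 CPM without irradiation (SD, n = 3 each) and were not called (log2 fold change 0.78, SE 0.39, edgeR adjusted p = 0.157).

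**Figure D2:**
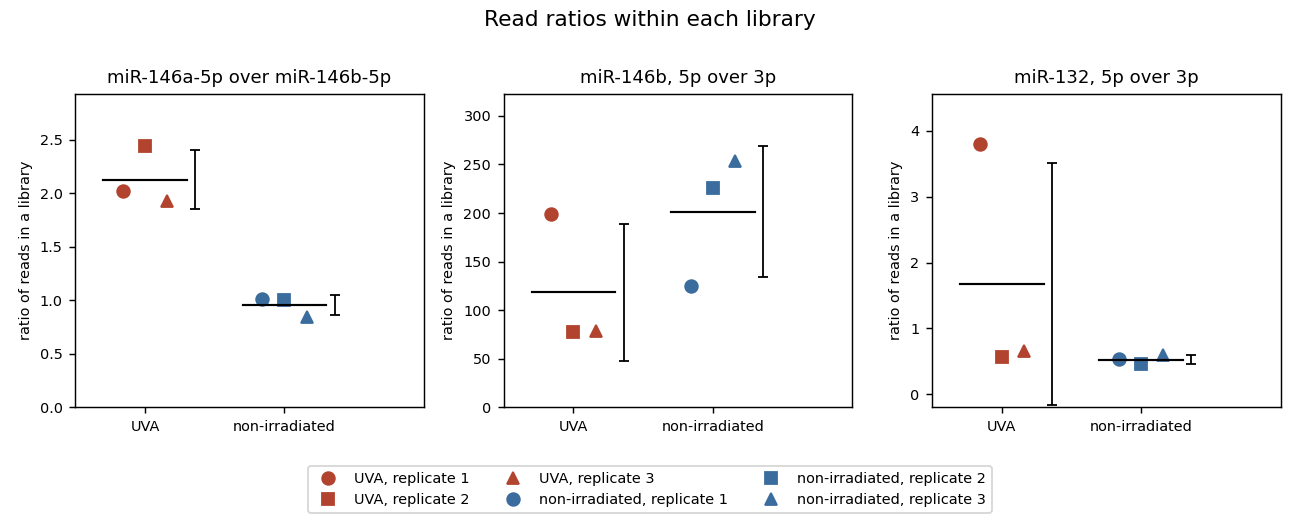
Ratios of reads within each library on linear axes, for miR-146a-5p over miR-146b-5p, for the 5p over the 3p arm of miR-146b and for the 5p over the 3p arm of miR-132. Lines are group means and bars ± 1 SD (n = 3 per group). The miR-146a-5p to miR-146b-5p ratio separates the groups, at 1.93 to 2.44 in UVA and 0.847 to 1.02 in non-irradiated libraries, while the arm ratio of miR-132 is high in UVA replicate 1 alone, at 3.80.

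mmu-miR-155-5p, the guide strand of the leukocyte activation miRNA, was unevenly high. It stood at 63.7, 262 and 210 CPM in UVA replicates 1 to 3, against 67.6, 42.7 and 54.5 CPM in non-irradiated replicates 1 to 3. UVA replicates 2 and 3 lay well above every non-irradiated library, while UVA replicate 1 lay within their range. The averages, 179 ± 103 CPM after UVA and 54.9 ± 12.5 CPM without irradiation (SD, n = 3 each) put it 1.70 higher on the log2 scale (SE 0.60), which was not called (edgeR adjusted p = 0.0661). It was called without UVA replicate 1 (log2 fold change 2.03, edgeR adjusted p = 0.0187).

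Of the 3p arm, miR-155-3p, 32, 20 and 8 reads were counted in UVA replicates 1 to 3, against 0, 0 and 24 in non-irradiated replicates 1 to 3. The zeros fall in the non-irradiated libraries that hold few entries with 1 to 9 reads, and the third non-irradiated library had more CPM (3.49) than any UVA library (0.820 to 2.04). The log2 fold change, 0.36 with SE 1.62 and an edgeR adjusted p of 0.897, was negative on leaving out UVA replicate 1 (-0.07), non-irradiated replicate 1 (-0.47) or non-irradiated replicate 2 (-0.49), and it was called without non-irradiated replicate 3 (7.27, edgeR adjusted p = 0.041), when no non-irradiated read was left.

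Neither arm of miR-132 was called. mmu-miR-132-3p, the strand for which targets are best known, stood at 9.31, 18.8 and 39.8 CPM in UVA replicates 1 to 3, against 17.2, 12.6 and 9.17 CPM in non-irradiated replicates 1 to 3. The groups overlapped, and the UVA mean of 22.6 CPM was 14.0 CPM without UVA replicate 3, against 12.99 CPM without irradiation (log2 fold change 0.80, SE 0.66, edgeR adjusted p = 0.375). miR-132-5p stood at 35.4, 10.6 and 26.2 CPM in UVA replicates 1 to 3, against 9.05, 5.73 and 5.39 CPM in non-irradiated replicates 1 to 3. Here the groups did not overlap, though UVA replicate 2 was only slightly above non-irradiated replicate 1 (log2 fold change 1.84, SE 0.64; adjusted p = 0.0659 by edgeR, not called).

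UVA replicate 1 stood apart in the arm balance of this hairpin, which is printed above with both arms in capitals. It held 3.80 reads of miR-132-5p per read of miR-132-3p, against 0.564 and 0.660 in UVA replicates 2 and 3 and 0.527, 0.455 and 0.587 in non-irradiated replicates 1 to 3. The 3p arm thus exceeded the 5p arm in 5 of 6 libraries. The log2 arm ratios overlapped between groups (difference 1.104, SE 0.89; exact permutation test, 2-sided, p = 0.2; 0.4 adjusted over 16 ratios). For miR-146b the 5p arm had 200, 77.3 and 78.3 reads per 3p read in UVA replicates 1 to 3, against 125, 226 and 253 in non-irradiated replicates 1 to 3, which also overlapped (difference -0.85, SE 0.55; exact permutation test, 2-sided, p = 0.2; 0.4 adjusted).

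miR-212 was scarce. Of miR-212-3p, which shares its seed with miR-132-3p, 32, 40 and 45 reads were counted in UVA replicates 1 to 3, against 0, 0 and 4 in non-irradiated replicates 1 to 3. The UVA libraries held 2.04 to 4.61 CPM and the third non-irradiated library 0.582 CPM, and the groups did not overlap (log2 fold change 4.21, SE 1.49, edgeR adjusted p = 0.0661, not called). miR-212-3p passed the filter on low counts through its UVA libraries alone, so these values are no evidence of a rise. Libraries without a read allow up to 0.229 and 0.249 CPM by counting alone (3 counts per library), but they are the ones with few entries of 1 to 9 reads, and the part of this in the result was not tested. The fitted value was 8.25 without non-irradiated replicate 3 (edgeR adjusted p = 0.0215), when no non-irradiated read was left.

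miR-212-5p stood at 1.79, 5.79 and 18.3 CPM in UVA replicates 1 to 3, against 3.32, 1.604 and 2.48 CPM in non-irradiated replicates 1 to 3. The groups overlapped, and 1 library carried the mean: 8.64 CPM in UVA skin was 3.79 CPM without UVA replicate 3, against 2.47 CPM without irradiation (log2 fold change 1.80, SE 0.93, edgeR adjusted p = 0.17). Without that library the log2 fold change was 0.63. Both miR-212-5p and miR-132-3p were highest in UVA replicate 3 and lowest of the UVA group in UVA replicate 1, while miR-132-5p was highest in UVA replicate 1. Reads of miR-132-3p exceeded those of miR-212-3p in every library, by 4.56, 6.47 and 8.62 to 1 in UVA replicates 1 to 3, against 15.8 to 1 in non-irradiated replicate 3. Non-irradiated replicates 1 and 2 had 207 and 165 reads of miR-132-3p and no miR-212-3p read. In those 2 libraries the ratio has no value, so no test of it is given.

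By mean CPM in UVA skin the order was miR-146a-5p, miR-146b-5p, miR-155-5p, miR-132-5p, miR-132-3p, miR-146b-3p, miR-212-5p, miR-212-3p and miR-155-3p. In UVA skin each neighbouring pair from miR-132-5p down to miR-212-3p overlapped, and miR-212-3p and miR-155-3p met at 2.04 CPM in UVA replicate 1, while in non-irradiated skin miR-132-3p lay above miR-132-5p in all libraries and miR-146a-5p and miR-146b-5p overlapped. CPM of different miRNAs also reflect how well each sequence is ligated and amplified, so the order is one of reads. Together the 10 entries took 1.05, 0.742 and 0.648% of miRNA reads in UVA replicates 1 to 3, against 0.353, 0.234 and 0.387% in non-irradiated replicates 1 to 3. Exact 95% binomial half-widths were at most 0.00559 percentage points and cover counting error only. Such shares depend on the other miRNAs counted, and striated muscle miRNAs took 28.5 to 39.7% of non-irradiated reads against 5.08 to 7.16% of UVA reads. With TMM scaling the 10 entries summed to 5443 to 8616 CPM in UVA libraries and 3068 to 4309 CPM in non-irradiated libraries. Most of this was miR-146a-5p and miR-146b-5p.

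**Figure D3:**
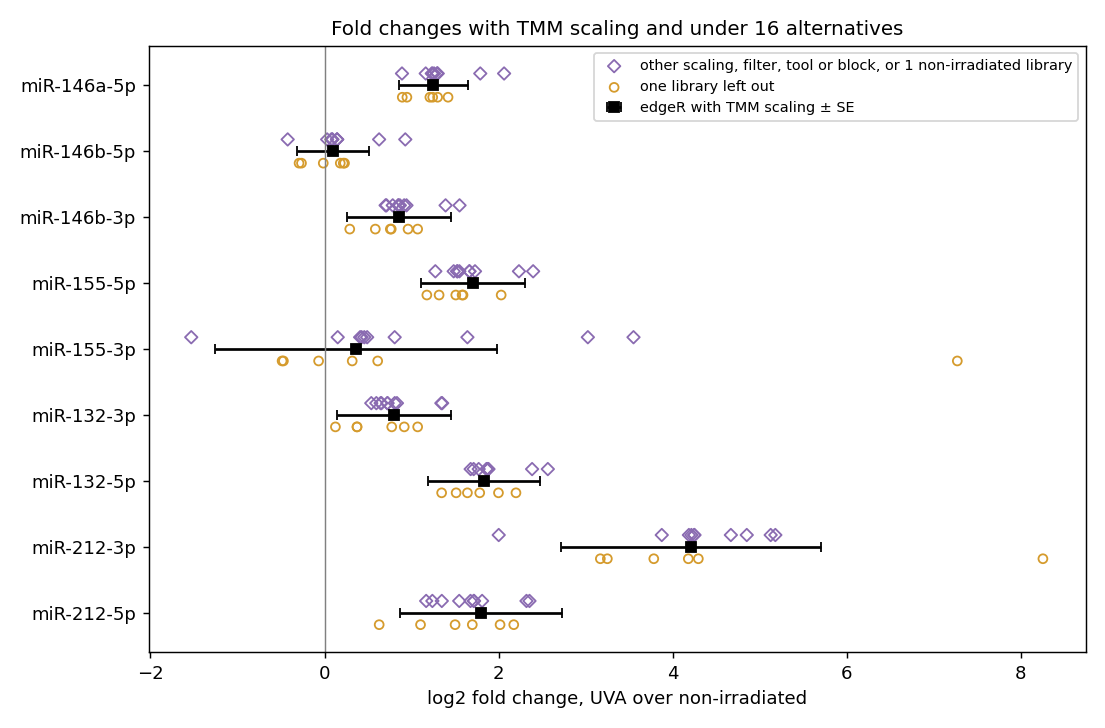
Log2 fold change of each tested member, UVA over non-irradiated, by edgeR with TMM scaling (black squares, bars ± SE) and under 16 alternatives. Diamonds are other scalings, filters, tools, the replicate block or a single non-irradiated library, and circles leave out 1 library each. miR-146a-5p lies between 0.89 and 2.06 throughout, miR-146b-5p between -0.42 and 0.93, and miR-155-3p and miR-212-3p spread most.

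The choice of scaling moved the members along with all miRNAs. Over all tested miRNAs the median log2 fold change was 0.27 with TMM, 0.81 with library size alone and 1.07 with the total reads. Relative to that median, miR-146a-5p was at 0.98 with TMM and at 0.98 to 1.00 over 5 other scalings, miR-155-5p at 1.43 and at 1.33 to 1.43, and miR-132-5p at 1.56 and at 1.50 to 1.61. miR-146b-5p was at -0.18 with TMM and at -0.18 to -0.14 over the 5. A change of scaling shifts all miRNAs of a library alike, so these distances had little room to move and are no test of the changes. With library size alone, 4 of 9 members were called, all higher, against 24.4% of tested miRNAs called higher; scaling by the total reads gave 4 of 9 against 29.1%. The DESeq2 Wald test called 4 of 9, all higher, against 22.8%, and limma-voom called 2 of 9 against 16.8%. Each of these sets holds miR-212-3p, which passed the filter through its UVA libraries alone. The members called with library size alone, with the total reads and by DESeq2 were miR-146a-5p, miR-155-5p, miR-132-5p and miR-212-3p, and limma-voom called miR-146a-5p and miR-212-3p. None was called with upper-quartile factors (10.8% of all called higher), without muscle reads in the library size (13.2%), without the filter (5.14%) or with replicate number as a term (12.2%), and miR-146a-5p alone with DESeq2 size factors (13.2%). With 1 library left out the share called higher ran from 3.55% without UVA replicate 2, over 4.37% and 4.8% without non-irradiated replicates 1 and 2, to 11.6% and 13.6% without UVA replicates 3 and 1 and 14.7% without non-irradiated replicate 3, and it was 0% with non-irradiated replicate 3 as the lone non-irradiated library. In the authors' deposited table miR-146a-5p (p = 0.0231), miR-155-5p (0.024), miR-132-5p (0.0328) and miR-212-3p (0.00493) had a p of 0.05 or lower, against 12.8% of its entries, and 0 of 10 members had a q of 0.05 or lower, against 3.99%.

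Other miRNAs known to respond to Toll-like receptor signalling were followed as a list of 14, all tested. miR-210-3p, miR-221-3p, miR-222-3p, let-7e-5p, miR-181a-5p and miR-27b-3p rose and none passed the test as lower, so 6 of 14 were called higher, against 13.6% of all tested miRNAs, and the list's median log2 fold change was 0.68 against 0.27. The list was chosen with earlier results of these data known, and its members have other known roles: miR-210-3p is induced in hypoxia (log2 fold change 3.96, SE 0.73), and miR-221-3p and miR-222-3p target the mRNA of Kit (3.22, SE 0.57, and 2.46, SE 0.64). let-7e-5p belongs to the let-7 family (2.33, SE 0.56), miR-181a-5p is known for tuning lymphocyte signalling (1.77, SE 0.45) and miR-27b-3p comes from the cluster of miR-23b and miR-24-1 (1.79, SE 0.46), all 6 at edgeR adjusted p from 0.00647 to 0.0242. The most abundant of the list, miR-21a-5p, stood at 30824, 20990 and 28654 CPM in UVA replicates 1 to 3, against 45639, 19969 and 33212 CPM in non-irradiated replicates 1 to 3, and was not called (log2 fold change -0.30). It was 1 of 4 in the list with a negative log2 fold change. Another was miR-99b-5p, at 1358, 2000 and 3169 CPM in UVA replicates 1 to 3, against 4215, 5047 and 4112 CPM in non-irradiated replicates 1 to 3. For it each UVA library lay below each non-irradiated library, without a call (log2 fold change -1.03, SE 0.43; adjusted p = 0.0988 by edgeR). Leaving out UVA replicate 2 left 2 of the list called, all higher, against 3.55% of all tested miRNAs called higher. Leaving out non-irradiated replicate 1 or 2 also left 2 each time, against 4.37% and 4.8%. Without non-irradiated replicate 3 there were 4, against 14.7%.

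**Figure D4:**
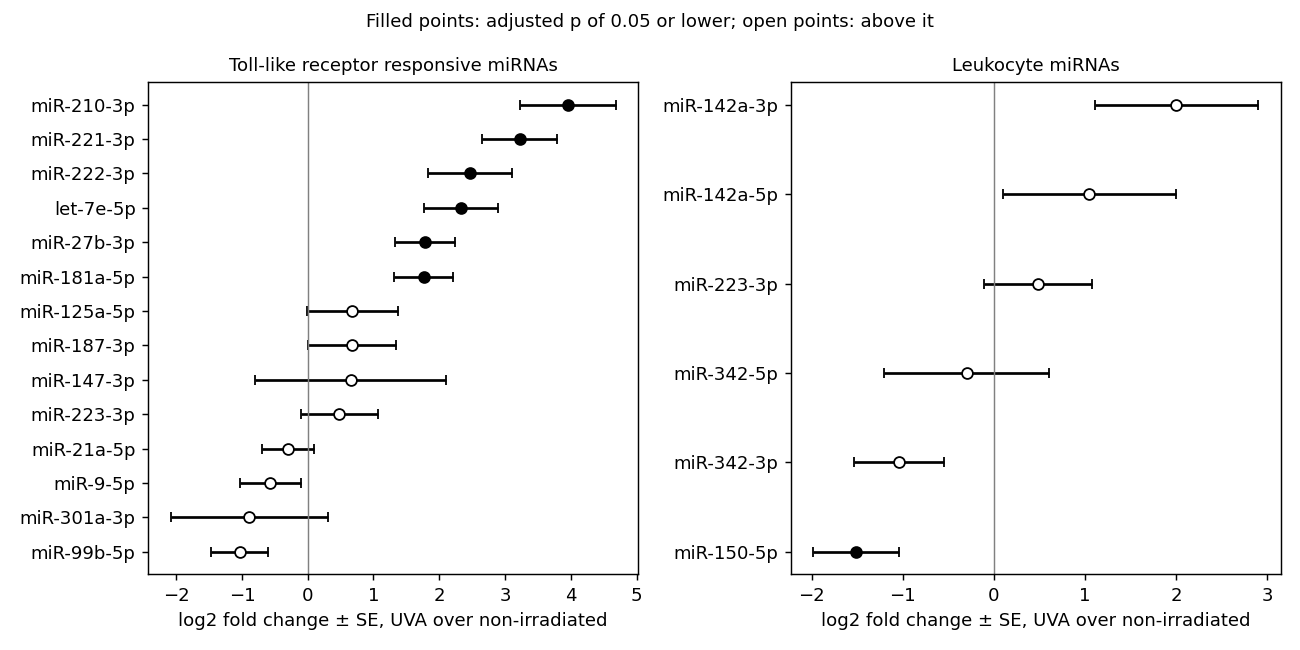
Log2 fold change ± SE, UVA over non-irradiated, of 14 miRNAs that respond to Toll-like receptor signalling (left) and 6 leukocyte miRNAs (right). Filled points have an edgeR adjusted p of 0.05 or lower. On the left 6 points are filled, all above 0, and on the right 1, miR-150-5p at -1.51.

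Leukocyte miRNAs were set beside the members because miR-146a and miR-155 are abundant in immune cells. Of 6 tested leukocyte miRNAs, miR-150-5p, typical of resting lymphocytes, fell (log2 fold change -1.51, SE 0.47, adjusted p = 0.0461 by edgeR), while 5 were not called. The share called was 16.7%, against 21.8% of all tested miRNAs called in either direction and 8.22% called lower. The call of miR-150-5p was lost without each single library except non-irradiated replicate 2 and when scaled by library size alone, and scaling by the total reads instead gave 1 call higher and 0 lower. For miR-223-3p, the neutrophil and monocyte miRNA that both lists hold, the log2 fold change was 0.48 (SE 0.59, edgeR adjusted p = 0.568). Its 5p arm, miR-223-5p, is outside the list, so the sums and the ratios to the list leave it out. That arm averaged 84.4 ± 102 CPM after UVA and 307 ± 132 CPM without irradiation (SD, n = 3 each). The groups overlapped and it was not called (log2 fold change -1.86, SE 0.84, edgeR adjusted p = 0.123). The list summed to 1410, 419 and 630 CPM in UVA replicates 1 to 3, against 792, 552 and 921 CPM in non-irradiated replicates 1 to 3, which overlap.

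The high sum of UVA replicate 1 held much miR-142a-3p, a miRNA of blood-cell lineages, which stood at 835 CPM there, at 68.1 and 100 CPM in UVA replicates 2 and 3, and at 74.1, 54.3 and 122 CPM in non-irradiated replicates 1 to 3. That library also had the highest miR-146a-5p, miR-146b-5p, miR-132-5p and miR-155-3p of the UVA group. It had the lowest miR-155-5p, miR-132-3p, miR-146b-3p, miR-212-3p and miR-212-5p of that group. The part of leukocyte RNA in these values was not tested. miR-146a-5p reads per read of the leukocyte list were 4.02, 9.81 and 5.35 in UVA replicates 1 to 3, against 2.64, 2.72 and 2.10 in non-irradiated replicates 1 to 3. They were higher in 3 of 3 UVA libraries without overlap (log2 difference 1.27, SE 0.40; exact permutation test, 2-sided, p = 0.1; 0.32 adjusted over 16 ratios). For miR-155-5p this ratio was 0.0452, 0.626 and 0.334 in UVA replicates 1 to 3, against 0.0853, 0.0774 and 0.0591 in non-irradiated replicates 1 to 3, with UVA replicate 1 below all other libraries and overlap between the groups (p = 0.4 by the same exact test; 0.533 adjusted).

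The fibroblast list, by contrast, was higher in every UVA library, at 19033 to 28450.0 CPM summed against 2639 to 3851 CPM in non-irradiated libraries, with 3 of 4 tested miRNAs called higher, against 13.6% of all tested. Outside the list, miR-199b-5p averaged 286 CPM after UVA and 226 CPM without irradiation, with overlap. It was not called (log2 fold change 0.34, SE 0.71, edgeR adjusted p = 0.753). The epithelial list summed to 34090.2 to 86159 CPM in UVA libraries and 44040.5 to 53951 CPM in non-irradiated libraries, and most of this was miR-203-3p. miR-205-5p was called higher among 7 tested (log2 fold change 2.97, SE 0.47, edgeR adjusted p = 0.0045). That share of 14.3% is close to the 13.6% of all tested called higher. The striated muscle list summed to 41907 to 58523 CPM in UVA libraries and 318624 to 479266 CPM in non-irradiated libraries. Of its 5 tested miRNAs 1 was called higher and 1 lower, against 13.6% and 8.22% of all tested. Most of the striated muscle sum was miR-1a-3p in each library except UVA replicate 3. It was the miRNA called lower, at 20088 to 54395 CPM in UVA skin against 296932 to 437319 CPM in non-irradiated skin. miR-206-3p was not called, at 3589, 4284 and 29616 CPM in UVA replicates 1 to 3. Its non-irradiated libraries stood at 21013 to 41514.5 CPM. The other call was miR-133b-3p, named after its values were seen, which was higher in UVA skin (log2 fold change 1.84, edgeR adjusted p = 0.0459), while miR-133a-3p had a log2 fold change of -0.02. The endothelial list summed to 14102 to 25741 CPM in UVA libraries and 20480.1 to 26427 CPM in non-irradiated libraries, with 1 of 2 called lower, miR-126a-5p (log2 fold change -2.12, adjusted p = 0.0255 by edgeR), against 8.22% of all tested. Both miRNAs of that list are arms of miR-126a. miR-126b-5p, outside the list, was called higher without overlap (log2 fold change 2.96, SE 0.55, edgeR adjusted p = 0.00795). The tested miR-126 entries thus did not move in 1 direction. The part of these cell types in the levels of the members was not tested.

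The tested miRNAs with the profile closest to each member over the 6 libraries were found by the root mean square difference of centred log2(CPM + 0.5) values, as a description. For miR-146a-5p they were miR-7a-1-3p (0.24), miR-186-5p (0.32) and miR-701-5p (0.32), of which miR-701-5p averaged only 1.05 CPM after UVA and 0 CPM without irradiation, so its likeness rests on the 0.5 CPM added. For miR-146b-5p they were miR-5615-5p (0.28), miR-148b-5p (0.29) and miR-30c-5p (0.30), and these 3 differ from the 3 listed for miR-146a-5p. miR-155-5p lay closest to miR-181a-5p (0.35), miR-15b-3p (0.35) and miR-301a-5p (0.36). miR-132-3p lay closest to miR-191-3p (0.29), miR-99b-3p (0.30) and miR-501-3p (0.36), while miR-132-5p lay closest to miR-98-3p (0.31), then miR-24-2-5p (0.41), then miR-24-1-5p (0.43). miR-501-3p was also the closest to miR-212-5p (0.19), next to miR-22-5p (0.32) and let-7a-5p (0.37).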

How the data were processed

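Whole-number read counts per mature miRNA were taken as the authors deposited them. The submitters' processing notes name Bowtie; the sources used here give no version, genome build or miRNA database. Each deposited RPM value is the count divided by 1 constant per library, from which the authors' total reads follow. Per the file headers, the authors' table holds a mean normalized signal per group, a log2 fold change (the log2 of a ratio), p-values and q-values. Columns were matched to samples by their descriptions.

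edgeR 4.0.16 (R 4.3.3) supplied the quasi-likelihood test, with TMM scaling, filterByExpr and Benjamini-Hochberg adjustment over 499 miRNAs, tested on simulated data first. SE is the absolute log2 fold change over the square root of F. DESeq2 1.42.0 and limma 3.58.1 gave alternatives. Read ratios, with 0.5 added to both counts for the test, were compared by exact permutation. Intervals and floors (3 counts per library) cover counting error only. All replicate pairs differed by more than sampling noise. The members, lists, tests and named miRNAs were chosen with earlier results of these data known. Named miRNAs are all members, the listed miRNAs as counts with examples, and the 3 closest profiles. Those given as outside a list were named after their values were seen.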

Additional observations from a re-analysis of the deposited data

How the results depend on the processing

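Counts given here are of miRNAs at an adjusted p of 0.05 or lower by edgeR with TMM scaling unless another tool or scaling is named. Against 109 miRNAs called in all, 167 were called with the authors' total reads, 191 by the DESeq2 Wald test, 38 to 124 when 1 library was left out, and 1 with non-irradiated replicate 3 as the lone non-irradiated library, which is then assumed to vary like the UVA libraries. Members called numbered 1 with TMM (in brackets, the share of all tested miRNAs called higher, 13.6%). There were 0 with upper-quartile factors (10.8%), 0 without the filter (5.14%) and 0 with the replicate block (12.2%). Library sizes taken without the striated muscle list, chosen after seeing the data, also gave 0 (13.2%). Library size alone gave 4 (24.4%), total reads 4 (29.1%), the DESeq2 Wald test 4 (22.8%) and limma-voom 2 (16.8%). With 1 library left out there were 0 to 2 (3.55 to 14.7%). The 2 came without non-irradiated replicate 3 and were miR-155-3p and miR-212-3p, with no non-irradiated read left.

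The log2 fold change of miR-146a-5p was 1.16 with upper-quartile factors, 1.30 without muscle reads in the library size, 1.26 without the filter, 1.23 with the replicate block and 0.89 with the lone library, and was called in none of these 5 (adjusted p from 0.0573 to 0.504); leaving out 1 library gave 0.89 to 1.42. The values called only elsewhere were, with library size alone, 2.38 for miR-132-5p, 2.23 for miR-155-5p and 4.67 for miR-212-3p; with the authors' total reads 2.57, 2.40 and 5.13; by the DESeq2 Wald test 1.87, 1.66 and 4.25; and by limma-voom 4.85 for miR-212-3p. With 1 library left out, miR-155-5p ranged from 1.18 to 2.03, miR-212-3p from 3.17 to 8.25, miR-155-3p from -0.49 to 7.27 and miR-146b-5p from -0.29 to 0.23. With the lone library, miR-146b-5p was at -0.42 and miR-155-3p at -1.53, opposite in sign to their values with all libraries. miR-132-3p, miR-146b-3p and miR-212-5p were called in none of the 16 alternatives and kept a positive sign. The difference in log2 ratio (UVA minus non-irradiated) of miR-146a-5p to miR-146b-5p reads ranged from 1.05 to 1.22 with 1 library left out. That of the miR-146a arms, with 4 libraries at 0 reads of 3p, ranged from -0.27 to 0.41, and that of miR-146b-5p to the leukocyte list from -0.14 to 0.36. Toll-like receptor responsive miRNAs called numbered 2 to 7 of 14 with 1 library left out. In those fits 3.55 to 14.7% of all tested miRNAs were called higher. The DESeq2 Wald test and the fit without UVA replicate 3 each called 6 of the list higher and 1 lower, against 22.8% and 11.6% called higher. Leukocyte miRNAs called numbered 0 with library size alone, 0 without muscle reads, 0 with the replicate block, 0 with the lone library and 0 to 1 with 1 library left out, and the fit without the filter called 1 higher and 0 lower. Correlations of deviations between libraries of the same replicate number were 0.086, -0.066 and -0.043 for numbers 1 to 3. Pairs with unlike numbers ran from -0.092 to 0.13. These values cannot show whether samples were paired, which the sources used here do not say. The replicate block called 106 miRNAs in all. The counts of the Toll-like receptor and leukocyte lists under these alternatives were added after seeing the data. The causes of these changes were not tested, beyond the loss of samples itself.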
